A study of Mus musculus with 11 samples.

Results

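The genes described here are 9 long noncoding RNAs of the mouse that are either held in the nucleus or expressed from imprinted domains: Malat1, Neat1, Miat, Snhg11, Meg3, Rian, Mirg, Kcnq1ot1 and Peg13. They were chosen by name, not by their values, from 48709 gene identifiers in the count tables. All 9 were among the 17293 genes expressed highly enough to be tested.

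RNA was sequenced from the microdissected CA1 field of the hippocampus, with 6 libraries of mice carrying the CamkdeltaC transgene and 5 of their littermates as controls, every one aged 3 months. CamkdeltaC is the C variant of the delta isoform of CaM kinase II, and the line is a model of heart failure because a heart promoter drives the transgene. The series title places the study between a failing heart and impaired memory. Mice of both sexes were used, and the labels give neither the sex, the litter nor the animal of a library, so p-values cover no more than the variation among these libraries, part of which may be technical.

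Many long noncoding RNAs are transcribed and processed like messenger RNAs but carry no long open reading frame. Malat1 collects in nuclear speckles, the stores of splicing factors, and Neat1 is the scaffold on which paraspeckles assemble. Imprinted noncoding RNAs are made from only the maternal or only the paternal chromosome, and several of them are tied to the silencing of neighbouring genes on the same chromosome, while others are hosts from which small nucleolar RNAs or microRNAs are cut.

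Malat1 and Neat1 lie 22.0 kb apart on the minus strand of chromosome 19 and share an unusual 3′ end. The processed long form of each ends at a triple helix, in which a genome-encoded run of adenines folds back onto 2 runs of uracils, in place of a poly(A) tail. The element is shown because these libraries were made from polyadenylated RNA, so the 3′ end bears on what is captured. The sequences were read from the annotated transcripts of GENCODE M21 on build GRCm38, at chr19:5795982-5796065 for Malat1 and at chr19:5824708-5824797 for Neat1, minus strand, with the uracil-rich motifs and the adenine run with its flank in capitals and U written as T.
Malat1: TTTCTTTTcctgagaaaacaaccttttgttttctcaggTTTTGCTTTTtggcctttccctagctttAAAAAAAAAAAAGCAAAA
Neat1: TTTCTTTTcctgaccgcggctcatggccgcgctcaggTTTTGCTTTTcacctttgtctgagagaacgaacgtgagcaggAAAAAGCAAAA
The adenine run was 12 bases in Malat1 and 5 bases in Neat1. The annotated Neat1 transcript stopped at the last base of the element, whereas the annotated Malat1 transcript went on for 292 bases. The middle stretch of capitals, the second uracil-rich motif and the same in both, was searched on the transcript strand and found in the longest transcript of 2.52% of 19538 genes with a count in every library. How well RNA ending in these elements was captured was not tested.

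Miat, also called Gomafu, gathers in its own nuclear bodies and carries repeats of the branch point motif of introns, TACTAAC, which bind the splicing factor SF1. A stretch of 200 bases with 3 of these copies in capitals shows the repeat, at chr5:112217319-112217518 on the minus strand of GRCm38.
Miat: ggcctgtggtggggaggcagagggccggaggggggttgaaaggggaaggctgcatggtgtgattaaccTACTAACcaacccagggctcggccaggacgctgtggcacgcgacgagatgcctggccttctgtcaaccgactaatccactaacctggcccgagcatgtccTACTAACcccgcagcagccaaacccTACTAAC
The longest Miat transcript held 6 copies, or 0.655 per kilobase, and 0.369% of the 19538 genes were at least as dense on the transcript strand. Kcnq1ot1 held 4 copies in a far longer transcript, and Neat1 held 1.

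Kcnq1ot1 is transcribed from the paternal chromosome inside an intron of Kcnq1, in the opposite direction, and silences part of the surrounding domain. Its promoter lies in the imprinting control region of that domain, and the RefSeq window of 250 bases before to 50 bases after its start is shown because the gene had the largest log2 fold change of the 9 in the fit without trend removal. With the GC trend removed that of Rian was slightly larger, and with GC and length trends removed that of Neat1 was largest. It spans chr7:143296498-143296797 on the minus strand of GRCm38.p6, with each CpG, the site of the imprinted methylation, in capitals.
Kcnq1ot1: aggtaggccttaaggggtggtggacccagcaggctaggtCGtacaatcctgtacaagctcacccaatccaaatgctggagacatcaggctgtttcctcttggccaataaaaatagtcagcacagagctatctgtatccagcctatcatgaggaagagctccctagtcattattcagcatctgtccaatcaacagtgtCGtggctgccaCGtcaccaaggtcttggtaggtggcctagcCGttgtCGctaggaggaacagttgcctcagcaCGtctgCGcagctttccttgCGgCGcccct
The window held 9 CpGs, and 45.8% of 32851 promoter windows in the same RefSeq table held at least as many. Among the other members with a window in that table, the count was 25 in Miat, 21 in Snhg11, 10 in Malat1 and in Mirg, 13 and 1 in the 2 windows of Meg3, and 0 in Rian. These letters say nothing of methylation, which was not measured.

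The abundance of the 9 RNAs was compared per length, as counts scaled to a common library total (CPM, TMM-scaled) per kilobase of merged exons, because a long transcript collects more reads. Snhg11, a host gene for small nucleolar RNAs that is abundant in neurons, led with 364 ± 45.0 in transgenic libraries and 434 ± 50.5 in controls (SD, n = 6 and n = 5). Meg3, the maternally expressed RNA at the head of the Dlk1-Dio3 cluster, followed with 350 ± 35.7 in transgenic libraries and 389 ± 65.0 in controls. The ranges of these neighbours in the order overlapped in both groups. Malat1 reached 102 ± 8.90 in transgenic libraries and 123 ± 20.3 in controls, and Miat 91.8 ± 11.2 in transgenic libraries and 91.5 ± 11.4 in controls. The ranges of Malat1 and Miat overlapped in transgenic libraries and were separate in controls. Genes on the opposite strand share 24.3% of the exon bases of Miat, 6.49% of those of Malat1 and 6.79% of those of Meg3. The lengths used here include these bases, where reads cannot be assigned without strand. The effect on the order, also that of Malat1 and Miat, was not tested.

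Peg13, a paternally expressed RNA of brain that lies within an intron of Trappc9, came next with 73.5 ± 7.02 in transgenic libraries and 68.6 ± 7.52 in controls, and overlapped Miat in both groups. Rian, the maternally expressed host of a cluster of small nucleolar RNAs, stood apart from its neighbours in the order at 33.7 ± 3.89 in transgenic libraries and 41.4 ± 2.37 in controls. Neat1 was far below Malat1, at 5.65 ± 1.1 in transgenic libraries and 4.91 ± 1.13 in controls. Neat1 overlapped Mirg, the maternally expressed host of microRNAs, which had 4.86 ± 0.445 in transgenic libraries and 4.64 ± 0.526 in controls. Kcnq1ot1 was lowest, at 0.140 ± 0.0148 in transgenic libraries and 0.212 ± 0.0357 in controls, and was separate from all others. The order of the 9 means was the same in both groups. The level of Neat1 was divided by 20771 bases and that of Rian by 18234, against 8089 in the longest Rian transcript. If counts come mainly from shorter forms, such as the short polyadenylated form of Neat1, these levels are too low. The places of Neat1 and Rian in the order thus depend on the length used, and the share of each form was not tested. Between them the 9 genes took 1.04% to 1.32% of all counts in transgenic libraries and 1.13% to 1.59% in controls.

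**Figure D1:**
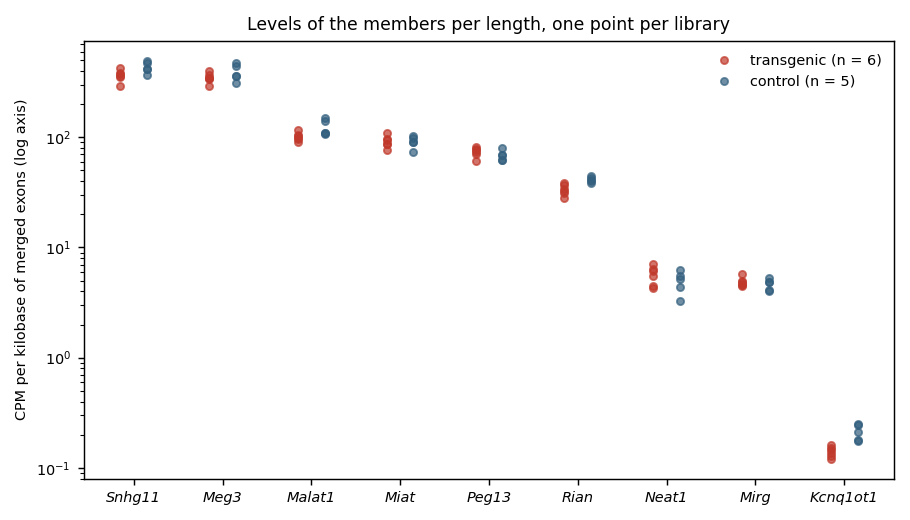
Level of each of the 9 RNAs per length, in CPM per kilobase of merged exons on a log axis, with 1 point per library for transgenic (left in each pair) and control mice. Snhg11 and Meg3 lie highest and overlap, and Kcnq1ot1 lies far below the rest with its transgenic points, 0.121 to 0.160, under all control points, 0.175 to 0.252.

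Libraries held 24403918 to 34153726 counts in transgenic mice and 31679533 to 36898689 in controls, apart from control 5 with 14263784. The gene of the transgene, Camk2d, had 67.8 ± 36.7 CPM in transgenic CA1 and 72.0 ± 18.6 CPM in controls (SD, n = 6 and n = 5), and did not differ beyond this spread (edgeR log2 fold change -0.080, SE 0.29, adjusted p 0.873). Because the promoter is active in the heart, this does not check the labels. All 9 CA1 pyramidal markers in the files were tested and 0 were called at an edgeR adjusted p under 0.05. Over all genes tested, 7.41% were called higher and 10.5% lower. The median log2 fold change of these markers was 0.18, against 0.0093 over all genes, so the misses do not show equal levels. They summed to 1483 to 1815 CPM in transgenic libraries and 1352 to 1598 CPM in controls. Markers of dentate and CA3 neurons summed to 180 to 315 CPM in transgenic libraries and 197 to 423 CPM in controls. Libraries also differed in how counts depended on base composition. Against the mean over all libraries, log2 CPM moved by 0.127 ± 0.134 per 10 points of GC content in transgenic libraries (range -0.0607 to 0.274, n = 6) and by -0.153 ± 0.0640 in controls (range -0.220 to -0.0617, n = 5), so GC-poor transcripts read lower than GC-rich ones in 5 of the 6 transgenic libraries. A fit with this trend removed from each library is therefore given beside each of the 9 RNAs. In library order the slope was 0.274, 0.259, 0.176, 0.0989, 0.0165 and -0.0607 in transgenic 1 to 6. It was -0.119, -0.0617, -0.201, -0.220 and -0.161 in controls 1 to 5. The slope thus fell with library number in the transgenic group, and that of transgenic 6 was close to that of control 2. What the numbers stand for is not given. Whether the trend arose in the tissue or in the preparation of the RNA cannot be told apart.

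Kcnq1ot1 and Rian were the 2 RNAs that fell in transgenic CA1, and 0 of the 9 rose, at an edgeR adjusted p under 0.05. Over all genes tested, 10.5% were called lower and 7.41% higher, 17.9% in all. Without a threshold, 5 members had a negative and 4 a positive log2 fold change, with a median of -0.15 against 0.0093 over all genes. In 2 of the 9, every transgenic library lay below every control, as did 4.73% of all genes. None lay above every control, as did 3.04% of all genes, and the groups were apart in 7.77% of all genes in either direction. With the GC trend removed, 0 of the 9 were called in either direction, against 1.98% of all genes (1.16% higher and 0.821% lower), and the median was -0.047 against -0.0028 over all genes. Since this is bulk tissue, fewer cells of a type and less RNA per cell cannot be told apart.

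Kcnq1ot1 had 11.2, 13.2 and 14.9 CPM as the lowest, median and highest of the 6 transgenic libraries, against 22.7, 16.3, 16.6, 19.7 and 23.4 CPM in the 5 controls. Every transgenic library was below the lowest control. The log2 fold change was -0.59 (SE 0.11, edgeR adjusted p 0.0117), a fold of 0.665. It rested on 308 to 521 counts in transgenic libraries and 334 to 728 in controls, spread over an unspliced transcript of 93092 bases (chromosome 7, 143203458 to 143296549). The call held in all 11 fits that left out 1 library, between -0.65 and -0.53. Its transcript has 40.3% GC, against a median of 49.6% over all tested genes. After removal of the GC trend the log2 fold change was -0.27 (SE 0.098, edgeR adjusted p 0.165), and with a length trend removed as well it was 0.022 (adjusted p 0.887). At this GC content the fitted trend alone differed by -0.33 on the log2 scale.

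Rian had 511, 608 and 704 CPM as the lowest, median and highest transgenic values, against 727, 745, 707, 784 and 813 CPM in the controls. The groups did not overlap, but the highest transgenic library, at 704 CPM, lay just under the lowest control, at 707 CPM. Rian fell by 0.30 on the log2 scale (SE 0.077, edgeR adjusted p 0.0229), a fold of 0.813. Without control 4 the adjusted p was 0.0606 and without control 5 it was 0.0611, with log2 fold changes of -0.28 and -0.27. The call held in the other 9 of 11 fits that left out 1 library. DESeq2 gave -0.30 with an adjusted p of 0.0039, and limma voom with sample weights gave -0.33 with 0.0051. Rian has the lowest GC content of the 9, 35.8% in its longest transcript. Removal of the GC trend turned the sign, to 0.27 (SE 0.080, edgeR adjusted p 0.0899). Its other annotated transcripts are richer in GC, 40.1% over all of them, and with GC taken in that way, a choice made after seeing the data, the value was 0.10 (adjusted p 0.424). The direction of Rian thus depended on the correction and was called in neither of these corrected fits.

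**Figure D2:**
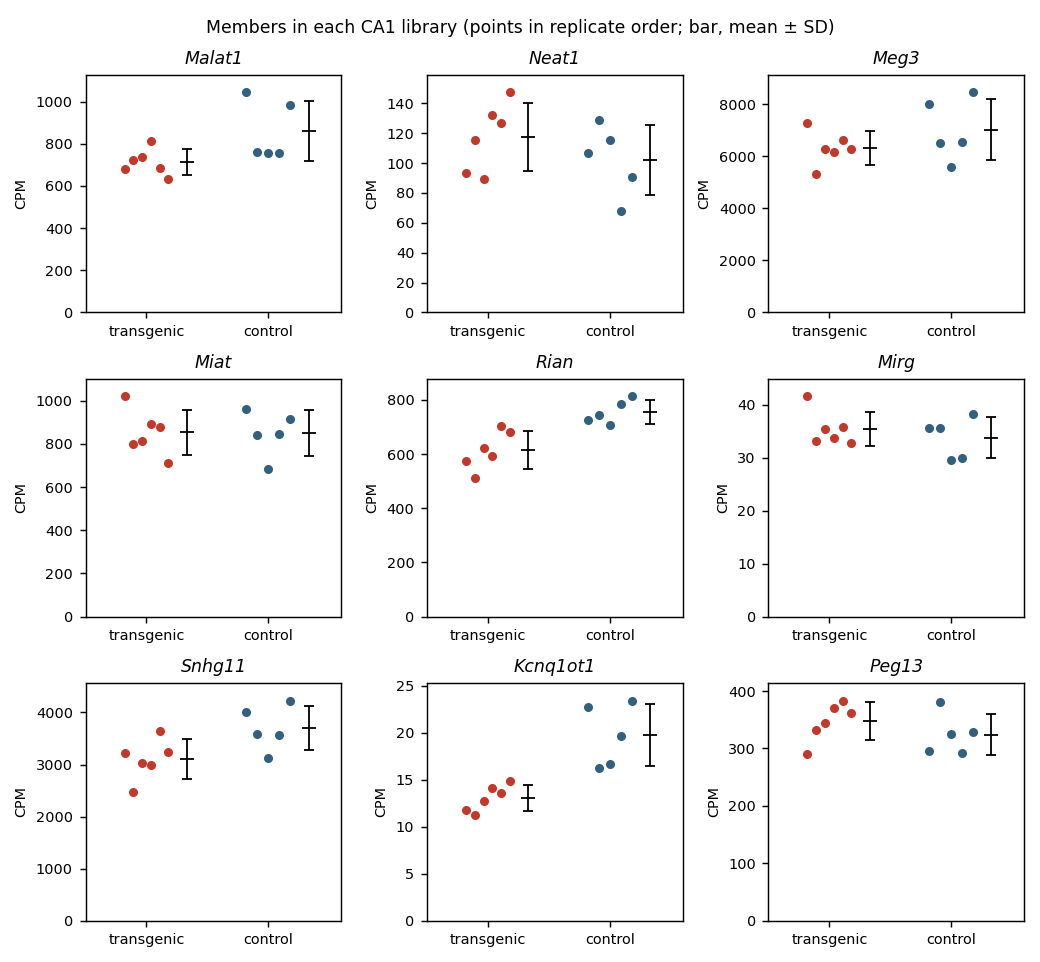
CPM of each of the 9 RNAs in every library (points, in replicate order) with mean ± SD (bars), transgenic (n = 6) left of control (n = 5), each axis starting at 0. Rian and Kcnq1ot1 are the RNAs whose groups do not overlap, and in Malat1 5 of 6 transgenic points lie below the lowest control.

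Malat1, the speckle RNA, had 632, 704 and 814 CPM as the lowest, median and highest transgenic values, against 1045, 761, 758, 756 and 983 CPM in the controls. Of the 6 transgenic libraries 5 lay below the lowest control, and controls 1 and 5 stood well above the other 3. Malat1 had a log2 fold change of -0.27 (SE 0.097, edgeR adjusted p 0.0662), which missed the threshold. DESeq2 gave -0.28 with an adjusted p of 0.0358, limma voom with sample weights gave -0.28 with 0.0400, and edgeR without control 2 gave -0.31 with 0.0497. Malat1 had -0.047 with the GC trend removed (adjusted p 0.876), at a GC content of 42.5%.

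Neat1, which lies beside Malat1 and forms paraspeckles, passed in none of these fits. It had 89.1, 121 and 148 CPM as the lowest, median and highest transgenic values, against 107, 129, 115, 68.1 and 90.4 CPM in the controls. The groups overlapped, and 2 transgenic libraries exceeded the highest control. Its log2 fold change was 0.20 (SE 0.16, edgeR adjusted p 0.393), 0.25 with the GC trend removed (adjusted p 0.445), and 0.42 with a length trend removed as well (adjusted p 0.274). It was the most variable of the 9, with a coefficient of variation of 19.4% in transgenic libraries and 23.1% in controls. The files count 1 Neat1 gene, so its short polyadenylated form and its long form cannot be separated.

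Snhg11 had 2476, 3128 and 3640 CPM as the lowest, median and highest transgenic values, against 4009, 3580, 3123, 3570 and 4229 CPM in the controls. The groups overlapped, with 3 transgenic libraries below the lowest control. The log2 fold change was -0.26 (SE 0.095, edgeR adjusted p 0.0762). It passed the threshold in DESeq2 (adjusted p 0.0450), in limma voom (0.0215), with the level of Xist, a marker of female cells, as a covariate (0.0400), and without transgenic 5 (0.0390). In the fit without the GC trend it was -0.13 (adjusted p 0.473), at 44.8% GC. GENCODE M21 annotates this gene as protein coding, although it is known as a noncoding host.

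Miat had 712, 847 and 1021 CPM as the lowest, median and highest transgenic values, against 962, 840.5, 684, 847 and 916 CPM in the controls. The ranges nearly coincided. Its log2 fold change was 0.0053 (SE 0.097, edgeR adjusted p 0.977), and -0.13 with the GC trend removed (adjusted p 0.458). Miat shares 24.3% of its exon bases with Gm26953, a noncoding gene on the opposite strand that had 11 to 27 counts. The kit does not mark strand, so reads of the shared bases cannot be assigned.

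**Figure D3:**
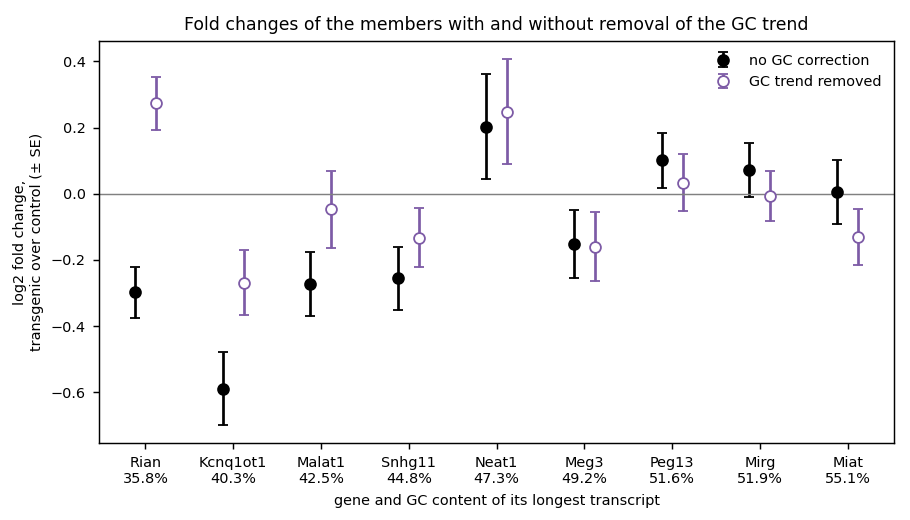
Log2 fold change, transgenic over control, with its standard error for the 9 RNAs in order of the GC content of the longest transcript, without (filled) and with (open) removal of the GC trend. Rian lies at -0.30 without and 0.27 with removal and Kcnq1ot1 at -0.59 and -0.27, while the paired points of Neat1 and of Meg3 lie close together.

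The maternally expressed RNAs Meg3, Rian and Mirg lie in a row on the plus strand of chromosome 12, with gaps of 32.2 kb and 68.0 kb, and are thought to be parts of 1 long transcription unit. Of the 3, Rian passed the test and the other two did not. Meg3 had 5309, 6288 and 7291 CPM as the lowest, median and highest transgenic values, against 8002, 6510, 5605, 6570 and 8471 CPM in the controls. Its log2 fold change was -0.15 (SE 0.10, edgeR adjusted p 0.321), and -0.16 with the GC trend removed (adjusted p 0.452), at 49.2% GC. Mirg had 32.8, 34.6 and 41.6 CPM as the lowest, median and highest transgenic values, against 35.7, 35.7, 29.5, 30.05 and 38.2 CPM in the controls. Mirg had a log2 fold change of 0.071 (SE 0.082, edgeR adjusted p 0.566), and -0.0064 with the GC trend removed (adjusted p 0.980). Both overlapped between the groups.

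Ratios of 2 RNAs within a library do not depend on how libraries are scaled, and 6 such ratios of neighbours were compared by a two-sided exact permutation test over 462 splits, with p adjusted over the 6. The smallest p this design allows is 0.00216. The log2 ratio of Mirg to Rian was -4.11 ± 0.218 in transgenic libraries and -4.49 ± 0.152 in controls (SD, n = 6 and n = 5), a difference of 0.38 (exact permutation p 0.0130, adjusted 0.0649). Mirg to Meg3 was -7.48 ± 0.0899 in transgenic libraries and -7.69 ± 0.140 in controls, a difference of 0.21 (exact permutation p 0.0216, adjusted 0.0649). Rian to Meg3 was -3.37 ± 0.164 in transgenic libraries and -3.20 ± 0.206 in controls, a difference of -0.16 (exact permutation p 0.186, adjusted 0.279). None of the 3 passed the adjusted threshold, and the ranges of the groups overlapped in each. Subtracting the fitted GC trend of both genes, an alternative chosen after seeing the data, turned Mirg to Rian to -0.28 and Rian to Meg3 to 0.42, each with an exact permutation p adjusted over the 6 of 0.0325. In the same way Mirg to Meg3 became 0.14 (exact permutation, adjusted p 0.156). The corrected ratios with Rian rest on the GC content of its longest transcript. With GC taken over all its transcripts, the corrected log2 fold change of Rian was 0.10 in place of 0.27. The ratios were not computed with GC taken in that way.

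Neat1 to Malat1 was -2.62 ± 0.331 on the log2 scale in transgenic libraries and -3.10 ± 0.428 in controls, so there was 0.163 Neat1 count per Malat1 count in transgenic libraries and 0.117 in controls as geometric means. The difference of 0.48 did not pass (exact permutation p 0.0693, adjusted 0.139), and was 0.30 with the GC trend subtracted (exact permutation, adjusted p 0.377). Kcnq1ot1 to Kcnq1, the potassium channel gene it runs against, was 4.39 ± 0.752 in transgenic libraries and 4.75 ± 0.347 in controls (difference -0.36, exact permutation p 0.327, adjusted 0.392), with only 7 to 30 Kcnq1 counts a library. Peg13 to Trappc9, its host gene, was 1.87 ± 0.243 in transgenic libraries and 1.90 ± 0.166 in controls (difference -0.022, exact permutation p 0.896, adjusted 0.896). These misses do not show that the ratios were equal.

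**Figure D4:**
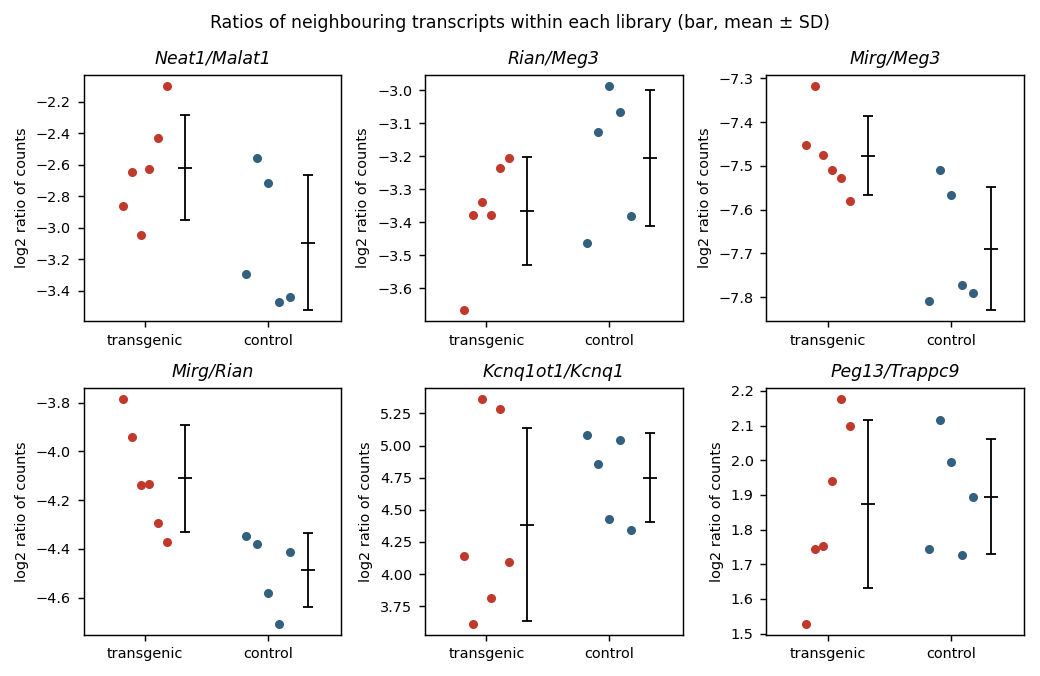
Log2 ratio of counts of 6 pairs of neighbouring genes in each library (points) with mean ± SD (bars), transgenic (n = 6) left of control (n = 5). Mirg to Rian and Mirg to Meg3 sit higher in most transgenic libraries, and the ranges overlap in all 6 panels.

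Peg13 itself had 291, 354 and 383 CPM as the lowest, median and highest transgenic values, against 295, 380.4, 325, 292 and 328 CPM in the controls. The groups overlapped over almost their whole range. Its log2 fold change was 0.10 (SE 0.082, edgeR adjusted p 0.411), and 0.034 with the GC trend removed (adjusted p 0.885). Of 6 other genes listed for its domain, 0 were called at an edgeR adjusted p under 0.05, as were 17.9% of all genes tested. Trappc9, a trafficking complex subunit, had 0.13 (adjusted p 0.149), Kcnk9, a maternally expressed potassium channel, -0.10 (0.572), and Ago2, the core of the microRNA complex, -0.18 (0.0569) as log2 fold changes in edgeR.

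In the Kcnq1 domain 2 of 9 tested genes rose and 0 fell, where 7.41% of all genes were called higher and 10.5% lower. Dhcr7, the last enzyme of cholesterol synthesis, had 45.4 ± 1.53 CPM in transgenic libraries and 37.8 ± 5.14 CPM in controls (SD, n = 6 and n = 5), a log2 fold change of 0.27 (edgeR adjusted p 0.0313). Tssc4 had 29.3 ± 1.13 CPM in transgenic libraries and 25.6 ± 1.99 CPM in controls, a log2 fold change of 0.20 (edgeR adjusted p 0.0376). Neither was called with the GC trend removed (0.17 and 0.00). Genes of the domain spanned a wide range of levels. Cd81, a tetraspanin, had 297 ± 16.0 CPM in transgenic libraries and 268 ± 17.5 CPM in controls (log2 fold change 0.15, edgeR adjusted p 0.0798), and Slc22a18, a transporter, had 0.447 ± 0.179 CPM in transgenic libraries and 0.254 ± 0.125 CPM in controls (log2 fold change 0.81, edgeR adjusted p 0.147). Cdkn1c, a growth inhibitor, had 1.80 ± 0.962 CPM in transgenic libraries and 1.78 ± 0.528 CPM in controls (log2 fold change 0.05, edgeR adjusted p 0.934), and Phlda2 had 0 to 1 counts a library. In the Dlk1-Dio3 domain 0 of 6 tested neighbours were called. The paternally expressed Dlk1, Rtl1 and Dio3 had log2 fold changes of -0.09, 0.01 and -0.32 (edgeR adjusted p 0.863, 0.979 and 0.602).

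The small RNA genes nested in these hosts were annotated separately. Of 28 such entries lying inside member exons with at most 1 base outside, 27 had 0 counts in every library, and the highest count was 3. Of 17 that lay in member introns only, 2 had 0 counts in every library, and the highest count was 102. Counts inside exons shared with a host were thus at or near 0 for the small RNA, and libraries of long polyadenylated RNA do not measure mature microRNAs. Kcnq1ot1 and Kcnq1, on opposite strands, share 121 exon bases, or 0.13% of the exons of Kcnq1ot1. The rest of Kcnq1ot1 lies over introns of Kcnq1. Because the kit does not mark strand, reads of unspliced Kcnq1 there cannot be told from Kcnq1ot1. Their share in the counts of Kcnq1ot1, and so in its ratio to Kcnq1, was not tested. Peg13 lies in an intron of Trappc9 on the same strand and shares 0 exon bases with it. Reads of unspliced Trappc9 there cannot be told from Peg13. The share of such reads in the level of Peg13 and in its ratio to Trappc9 was not tested.

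Fold changes over all genes followed GC content. With GC of the longest transcript, Rian and Kcnq1ot1 lay off that trend in opposite directions, by 0.27 (SE 0.080) and -0.27 (SE 0.098), neither called. Neat1 lay off it by 0.25 (SE 0.16), also not called. With GC taken over all transcripts Rian had 0.10 and Kcnq1ot1 -0.21. With GC and length trends removed they had 0.35 and 0.022, so these distances depended on the correction. The 5 with a negative log2 fold change had 35.8% to 49.2% GC and the 4 with a positive one 47.3% to 55.1%. The fitted trend alone differed between the groups, transgenic minus control, by -0.57 at the GC content of Rian, -0.33 at that of Kcnq1ot1, -0.22 at that of Malat1 and -0.13 at that of Snhg11, and by 0.13 at that of Miat on the log2 scale. Among all 1596 tested genes of long noncoding biotypes, 0.815% were called higher and 5.70% lower, against 7.41% and 10.5% of all genes. Their median was -0.11, against 0.0093 over all genes. With the GC trend removed, 2 of the 1596 were higher and 4 lower, against 1.16% and 0.821% of all genes.

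**Figure D5:**
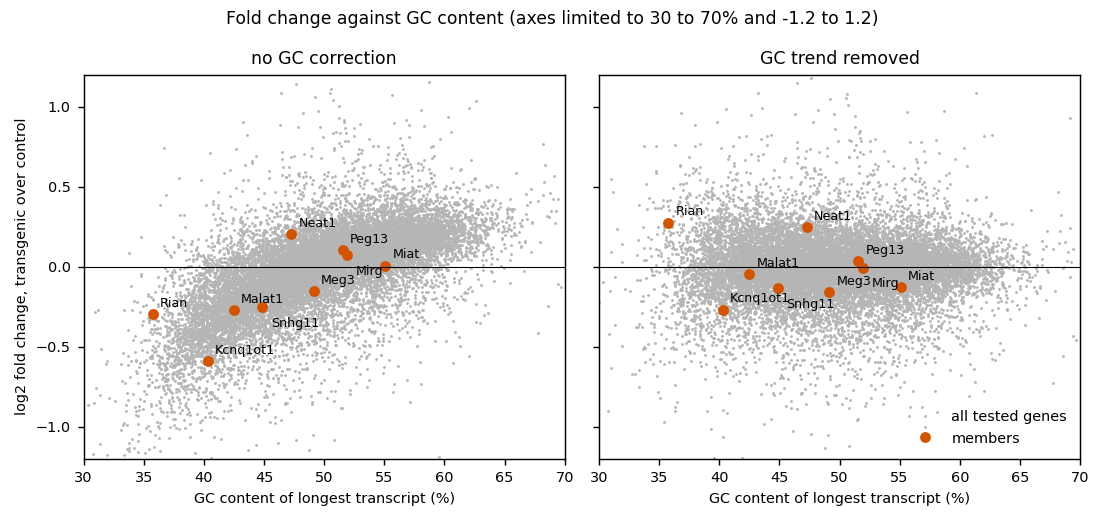
Log2 fold change, transgenic over control, against GC content of the longest transcript for tested genes (grey) and the 9 RNAs (orange), without (left panel) and with (right panel) removal of the GC trend, with genes beyond the axis limits not drawn. On the left the grey band climbs with GC content and Kcnq1ot1, at 40.3% GC, lies at -0.59. On the right the band is level and Rian lies at 0.27.

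Transcripts of proteins that work with these RNAs were read in the same fit. For these and the lists below, the shares over all genes tested were 7.41% called higher and 10.5% lower. With the GC trend removed these shares were 1.16% and 0.821%. Of 20 genes of paraspeckle proteins 0 rose and 7 fell (median log2 fold change -0.17 against 0.0093 over all genes), and 2 were lower with the GC trend removed. Sfpq, a core paraspeckle protein, had 150 ± 8.23 CPM in transgenic libraries and 194 ± 19.1 CPM in controls (SD, n = 6 and n = 5). Its log2 fold change was -0.37 (edgeR adjusted p 0.0111), and -0.40 with the GC trend removed (adjusted p 0.0314). Cpsf6, a 3′ end processing factor, had -0.75 (edgeR adjusted p 0.0119) and -0.35 with the GC trend removed (adjusted p 0.0314). Zc3h6 had -0.44 (adjusted p 0.0129) and -0.25 (adjusted p 0.104). Of 20 genes of nuclear speckle proteins 1 rose and 12 fell (median -0.21), and 1 rose and 3 fell with the GC trend removed. The arginine-serine proteins Pnisr and Srsf11 had -0.36 and -0.39 (edgeR adjusted p 0.0103 for both), and -0.19 and -0.27 with the GC trend removed (adjusted p 0.0373 and 0.0314). Rbm25, a splicing regulator, had -0.47 (edgeR adjusted p 0.0103) and 0.00 with the trend removed.

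Of 20 factors of RNA export, nuclear decay and the nuclear matrix, 0 rose and 6 fell, and 1 rose and 1 fell with the GC trend removed. Thoc2, of the export complex THO, had -0.66 (edgeR adjusted p 0.0103), and -0.20 with the trend removed (adjusted p 0.0320). Zfc3h1, which targets nuclear RNA for decay, had -0.29 (adjusted p 0.0157), and Hnrnpu, a nuclear matrix protein, -0.26 (adjusted p 0.0161). Neither was called with the trend removed, at -0.19 and 0.04. Of 31 other named long noncoding RNAs 2 rose and 7 fell (median -0.13), and 1 rose and 0 fell with the trend removed. Snhg14, the host of the Prader-Willi cluster of small nucleolar RNAs whose far end runs against Ube3a, had -0.76 (edgeR adjusted p 0.0103) and 0.09 with the trend removed. Ftx, of the X-inactivation centre, had -0.39 (adjusted p 0.0119), and Dlx6os1, of interneurons, -0.56 (adjusted p 0.0143), with -0.25 and -0.12 after removal of the trend, neither called.

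Of 30 imprinted protein-coding genes outside the 3 domains, 1 rose and 4 fell, and 1 rose and 1 fell with the GC trend removed. Ube3a, the ubiquitin ligase that neurons express from the maternal copy, had 64.1 ± 24.3 CPM in transgenic libraries and 123 ± 9.0 CPM in controls (SD, n = 6 and n = 5). Its log2 fold change was -0.94 (edgeR adjusted p 0.0134), and -0.49 with the trend removed (adjusted p 0.0387). Ppp1r9a had -0.26 (adjusted p 0.0123) and Peg3, a paternally expressed zinc finger gene, -0.35 (adjusted p 0.0260), with -0.16 and -0.29 after removal of the trend, neither called.

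Microglial markers rose in 5 of 10, where 7.41% of all genes were called higher and 10.5% lower. Their summed level was 370 to 484 CPM in transgenic libraries and 332 to 403 CPM in controls. They were led by Trem2 at 0.45 (edgeR adjusted p 0.0158), a microglial lipid receptor, Tyrobp at 0.34 (0.0300) and Csf1r at 0.25 (0.0365). Of 10 interneuron markers 2 rose and 0 fell (Cck 0.32, Slc32a1 0.22), with 1396 to 1584 CPM in transgenic libraries and 1335 to 1437 CPM in controls. Of 10 astrocyte markers 2 rose and 1 fell (Aldh1l1 0.24, Acsbg1 0.26, Slc1a2 -0.17), with 4888 to 5779 CPM in transgenic libraries and 5607 to 6260 CPM in controls. Oligodendrocyte markers summed to 3669 to 6306 CPM in transgenic libraries and 3051 to 5174 CPM in controls, with 1 of 10 higher (Sox10 0.41). Endothelial and mural markers summed to 272 to 328 CPM in transgenic libraries and 282 to 353 CPM in controls, with 2 of 10 lower (Rgs5 -0.34, Slco1a4 -0.36). Of 9 dentate and CA3 markers tested, 0 were called, with a median log2 fold change of -0.21. With the GC trend removed 0 markers of any of these lists were called. The part of cell type makeup in the values of the 9 RNAs was not tested.

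The genes with profiles closest to 4 of the RNAs over the 11 libraries were found among 12559 genes, by the root mean square difference of log2 CPM after each gene's mean was subtracted. For Kcnq1ot1 they were Xkr4 (0.0840) and Zfp871 (0.0847), for Rian Tmtc4 (0.0503) and Otud4 (0.0535), for Malat1 Slc9a7 (0.0767) and Vps13c (0.0775), and for Neat1 Hs3st1 (0.115) and Rassf3 (0.117). These distances compare with root mean square deviations of the RNAs themselves of 0.342 for Kcnq1ot1, 0.196 for Rian, 0.209 for Malat1 and 0.309 for Neat1. Libraries share depth and base composition, so a like profile is a description only.

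The authors' deposited tables hold 2014 genes lower and 1780 higher in transgenic mice. In the authors' deposited table of lower genes, Kcnq1ot1 had a log2 fold change of -0.59 with an adjusted p of 6.54e-05 and Malat1 one of -0.27 with an adjusted p of 0.0437. Rian, called lower in the edgeR fit and in the DESeq2 fit made here (-0.30, DESeq2 adjusted p 0.0039), had no match in the authors' deposited tables as used here. Snhg11, called lower in that DESeq2 fit (-0.26, DESeq2 adjusted p 0.0450) but not in the edgeR fit, had no match there either. The reason was not tested.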

How the data were processed

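The authors deposited raw counts per Ensembl gene for each library, made on build mm10. Per the submitters' processing notes, the tools were STAR 2.5.2b, Subread 1.5.1 with featureCounts, and FastQC 0.11.5, with no role or setting given. Per the labels' protocols, polyA RNA was made into libraries with TruSeq RNA kit v2, which does not mark strand, and read from a single end over 50 bases. The authors' deposited result tables hold a signal per library (counts divided by a size factor), a log2 fold change and adjusted p-values. The sources used here do not give their tool.

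Symbols, positions, GC content and lengths came from GENCODE M21, which named 48349 of 48709 identifiers. RefSeq promoter windows matched 7 of the 9 members. Counts were filtered with filterByExpr, leaving 17293 genes with 99.9% of counts, scaled with TMM and tested with the quasi-likelihood F test of edgeR 4.0.16 in R 4.3.3, with Benjamini-Hochberg adjustment over all genes and a threshold of 0.05. No covariate was used. The standard error is the fold change over the root of F. The GC trend of a library was a lowess curve (span 0.3) of each gene's deviation from its mean log2 CPM (prior count 2) on GC content, entered as an offset for 17246 genes with a GC value. Within-library ratios used counts plus 0.5. Chi-square over its degrees of freedom was 6.24 to 49.0 for pairs of libraries within groups, so each counted as 1 sample. The edgeR fit without trend removal and the permutation test were run on simulated data that held no GC trend. The removal of trends, and how a GC trend between groups affects the calls, were not tested in that way. Alternatives were DESeq2 1.42.0, its size factors, upper-quartile scaling, limma 3.58.1 voom with sample weights, other filters, Xist as a covariate, the replicate number as a block, a ratio pseudocount of 5, GC and length trends, and leaving out each library.

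Named genes were the 9 members, up to 3 called genes with the smallest p from each of 15 lists, the 2 nearest profiles for at most 4 members, and neighbours sharing exons with a member. Of the last, entries with few counts are summarised. The domain neighbours named without a call were chosen after their values were seen. The members, the lists and the removal of GC and length trends were chosen with earlier results of these data known.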

Additional observations from a re-analysis of the deposited data

Results flagged for a closer look

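Of 30 sets of values (the 9 RNAs and 6 ratios, in each group) checked for a single library far from the rest, 2 had one, and chance gives about 1 in 20. Both were in transgenic 1. Mirg stood at 41.6 CPM there, the highest value of the transgenic group, while the other transgenic libraries had 32.8 to 35.9 CPM and the controls 29.5 to 38.2 CPM. The log2 ratio of Rian to Meg3 was -3.67 there, the lowest of the transgenic group, while the next lowest was -3.38. That library also had the steepest GC trend, 0.274 per 10 points. The part of the trend in either value was not tested.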

How the results depend on the processing

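The 3094 genes called by edgeR became 4774 with limma voom, 342 with the GC trend removed, 149 with GC and length trends removed, 216 with GC taken over all transcripts, and 1155 to 4712 when 1 library was left out, lowest without control 4 and highest without transgenic 6. Of the 9 RNAs, 2 were lower, 4 in DESeq2 and in limma voom, 0 in each of the 3 trend fits, and 1 to 3 without 1 library (1 without control 4 or 5, Kcnq1ot1 in both). None was called higher in any fit. The replicate number as a block gave 4594 calls and 3 lower members, adding Snhg11 at -0.27 (edgeR adjusted p 0.0215). The deviations of same-numbered libraries correlated at 0.197, -0.0267, -0.185, -0.0514 and 0.0232, and 1 of 5 matched its own number best. A pairing by number was thus not seen, but these few values cannot exclude it.

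Signs turned in the trend fits (GC, then GC and length, then GC over all transcripts) for Rian (0.27, 0.35, 0.10), Miat (-0.13, -0.039, -0.13) and Mirg (-0.0064, -0.011, -0.00086), in the last 2 of these fits for Malat1 (0.015 and 0.0044), and in the GC and length fit for Kcnq1ot1 (0.022). Miat, near 0, also turned in limma voom (-0.013) and without transgenic 1, 4 or 5 or control 3, with a range of -0.063 to 0.054 when 1 library was left out. The causes were not tested.

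With the GC trend subtracted, the ratios of Rian to Meg3 (0.42), Mirg to Rian (-0.28), Kcnq1ot1 to Kcnq1 (0.13) and Peg13 to Trappc9 (0.042) turned. Leaving out 1 library gave 0.18 to 0.26 for Mirg to Meg3, adjusted p 0.0429 without control 2, and 0.31 to 0.43 for Mirg to Rian, adjusted p 0.0476 without transgenic 6 and 0.0429 without control 2. Peg13 to Trappc9 ran from -0.082 to 0.047, Rian to Meg3 from -0.23 to -0.10, Kcnq1ot1 to Kcnq1 from -0.56 to -0.21 and Neat1 to Malat1 from 0.37 to 0.61.

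Kcnq1ot1 had the fewest counts of the 9, and its ratio to Kcnq1 rests on few Kcnq1 counts. Control 5 is the shallowest library.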
